A study of Mus with 4 samples.

Results

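The genes described here had at least 1 m6A peak in iBAT of control *Wtap* flox/flox mice and none in iBAT of *Wtap*-BKO mice. They were chosen by Ensembl gene identifier, as every identifier of the control peak list that is absent from the *Wtap*-BKO list. The rule found 1718 of the 9732 genes with a control peak (17.7%, 95% Wilson interval 16.9% to 18.4%), and they carried 2163 of the 18400 control peaks (11.8%). The other 8014 control genes had a peak in both lists. Because presence in the lists made the selection, these numbers are a description, and no test was made on them. In the opposite direction, 1699 of 9713 *Wtap*-BKO genes (17.5%) had no control peak.

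The study used MeRIP-seq, in which fragmented poly(A)+ RNA is pulled down with an antibody against m6A (IP) and sequenced beside the input RNA. There were 4 sequenced samples, an IP and an input per genotype, each from a pool of 8 mice on the C57BL/6 background, 8 weeks old and fed chow. Both genotypes carried *Wtap* alleles with loxP sites around exon 4. *Wtap*-BKO mice carried *Ucp1*-iCre in addition, so the deletion was driven in cells that express *Ucp1*, and the other cells of the depot kept the floxed alleles. There was 1 pool per genotype and so no replicate, and the intervals below cover only the error of counting genes or peaks. Read totals were not given, so depth is unknown. A missing *Wtap*-BKO peak therefore means that no stretch of the gene passed the authors' false discovery rate (FDR) limit of 0.05 in that pool. Whether the transcript lost m6A, was present at a lower level, came from fewer cells or was covered by fewer reads cannot be told apart, and in bulk tissue fewer cells of a type and less RNA per cell cannot be told apart either.

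N6-methyladenosine (m6A) is the most common internal modification of mRNA. It is written by a complex of METTL3 and METTL14, and WTAP is the adaptor that holds this pair at its RNA targets. Methylated sites are found mainly near stop codons and in 3ʹ-UTRs, where reader proteins bind and change the stability or translation of the transcript. Brown adipose tissue burns fatty acids in its many mitochondria to make heat, with UCP1 as the uncoupling protein. All 14 brown adipocyte markers examined, *Ucp1* among them, had a control peak, and 13 had a *Wtap*-BKO peak.

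Most of the genes with control peaks only had a single, short peak. Of the 1718, 1362 (79.3%) had 1 peak, 286 (16.6%) had 2, 54 (3.14%) had 3, 14 had 4, 1 had 5 and 1 had 6. The share of control genes without a *Wtap*-BKO peak was 27.6% among the 4933 genes with 1 control peak (interval 26.4% to 28.9%). It was 10.4% among the 2739 genes with 2 peaks and 4.72% among the 1144 genes with 3. Among the 916 genes with 4 or more control peaks it was 1.75% (16 genes, interval 1.08% to 2.82%). The share became smaller from 1 to 4 peaks, and it was 1 of 210 genes with 5 peaks and 1 of 208 with 6 or more. In the opposite direction, 28.3% of *Wtap*-BKO genes with 1 peak and 1.11% of those with 4 or more (11 of 990) had no control peak.

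Strong peaks were missing from the other list more often in 1 direction than in the other. The strength of a peak is given here as the log10 of its FDR, where a more negative value is stronger. Among control genes with a strongest peak under -20, 184 of 3837 (4.8%, interval 4.16% to 5.52%) had no *Wtap*-BKO peak. Among *Wtap*-BKO genes at the same limit, 35 of 2880 (1.22%, interval 0.875% to 1.69%) had no control peak. At a limit of -5 the shares were 10.4% (758 of 7270) and 7.87% (531 of 6748). Under -50 the counts were 43 of 1695 control genes (2.54%) and 9 of 1124 *Wtap*-BKO genes (0.801%). Among genes with 1 peak, the intervals of both directions overlapped for peaks from -5 up, where 42.7% of control and 44.3% of *Wtap*-BKO genes lacked a peak in the other list. They did not overlap between -50 and -20, where the shares were 12.5% (99 of 794 genes) and 3.2% (18 of 563 genes). The part that read depth plays in this difference was not tested.

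**Figure D1:**
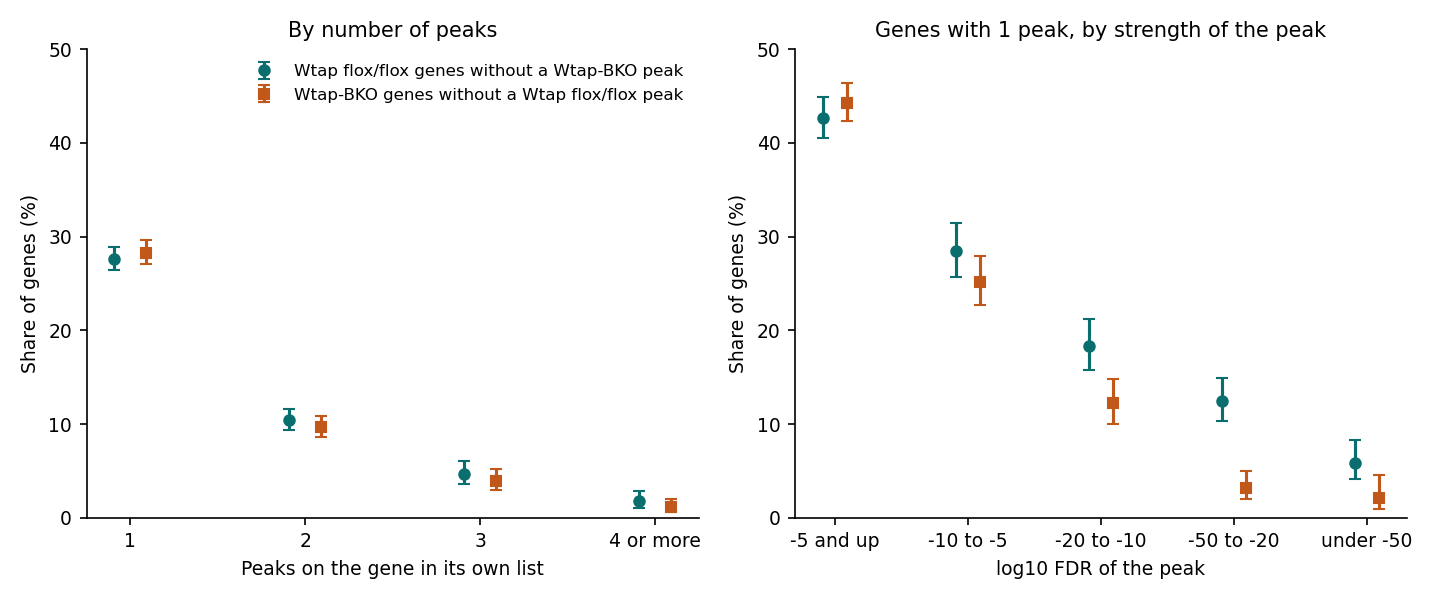
Share of genes (%) that lack a peak in the other genotype, by number of peaks on the gene (left) and, for genes with 1 peak, by the log10 FDR of that peak (right). Circles are *Wtap* flox/flox genes, squares are *Wtap*-BKO genes, and bars are 95% Wilson intervals. The shares of both lists fall with the number of peaks, and they stand furthest apart between -50 and -20, at 12.5% and 3.2%.

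The peaks were shorter than those of control genes with a *Wtap*-BKO peak. Their median length was 180 exonic bases (25th percentile 121, 75th percentile 241), against 241 (180 to 419) for the 16237 peaks of the other control genes. Peaks under 150 bases made up 30.6% (661 of 2163) against 14.5%, and peaks of 600 bases or more 1.62% (35 peaks on 34 genes) against 11.3%. Fewer were split over exons, 9.8% against 16.2% in 2 or more blocks. The shorter length went with lower strength, as the median log10 FDR was -4.01 against -8.7, and 39.2% of peaks against 66.2% were under -5. The fold enrichment of IP over input was nearly the same, with medians of 6.53 (interval 6.25 to 7.01) and 6.58 (interval 6.46 to 6.75). These values come from the same list as the selection, and strength bears on whether a gene is selected.

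Within classes of strength, the difference in length was seen among strong peaks and not among weak ones. Among genes with 1 peak of log10 FDR from -5 up, the median was 149 bases for the 825 genes without and 151 bases for the 1106 genes with a *Wtap*-BKO peak. Between -10 and -5 both medians were 211 bases. Between -20 and -10 they were 271 and 300 bases. Under -20 they were 326 bases for 128 genes without and 446 bases for 1160 genes with a *Wtap*-BKO peak, and the intervals of these medians (300 to 331 and 420 to 450) did not overlap. This last class has no lower bound, so strength was not matched within it. Of its genes with 1 peak, 29 of 494 under -50 and 99 of 794 between -50 and -20 had no *Wtap*-BKO peak. The part of strength in the difference in length under -20 was not tested.

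**Figure D2:**
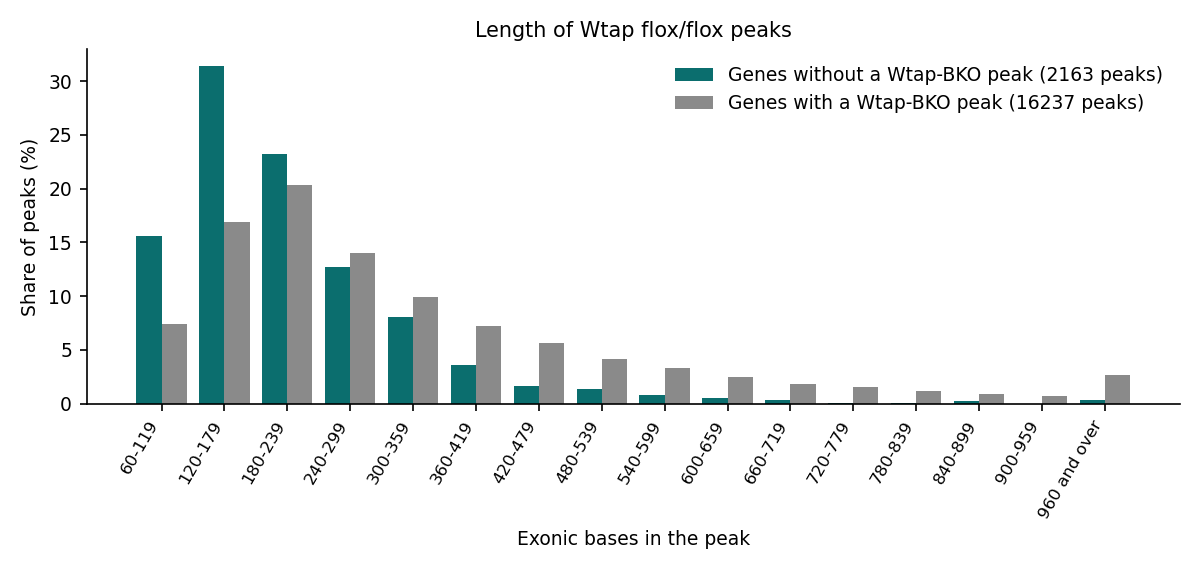
Length of control peaks in exonic bases (x axis, bins of 60 bases) as a share of peaks (%, y axis) on genes without (dark bars) and with (grey bars) a *Wtap*-BKO peak. The bin of 120 to 179 bases holds 31.4% of the former and 16.9% of the latter.

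Only 16 genes had 4 or more control peaks and no *Wtap*-BKO peak. They carried 67 peaks, 64 of them in 1 block, with lengths from 90 to 1766 bases and a median of 210. Of the 67 peaks, 19 had a log10 FDR under -10 and 31 above -5. Peaks under -10 were found on 8 of the genes. All positions are given as GRCm38.

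*Fam83h* had the most peaks. The FAM83H protein binds keratin filaments and is known for its part in enamel formation. Its 6 peaks lay in chr15:76001600-76006452 on the minus strand and covered 1080 bases. They were 90 to 270 bases long, with fold enrichments of 4.5 to 13.5, and none was strong, with a log10 FDR from -2.33 to -6.28. *Slc7a6*, an exchanger of cationic and neutral amino acids at the plasma membrane, had 5 peaks on chromosome 8. The first, chr8:106179418-106179568, had a log10 FDR of -6.35 at a fold enrichment of 3.24. The other 4 lay together in chr8:106196586-106198706, with log10 FDR of -13.6, -10.1, -3.64 and -19.1 in order of position. The fold enrichments of the 5 peaks were 3.07 to 7.49.

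*Mlycd*, *Nudt12* and *Mogs*, each with 4 peaks, act in metabolism or in organelles. *Mlycd* encodes malonyl-CoA decarboxylase, which removes the inhibitor of fatty acid entry into mitochondria. Its strongest peak, chr8:119409993-119410233, had a log10 FDR of -67.6 at a fold enrichment of 8.21, stronger than 92.6% of control peaks. The other 3 had a log10 FDR of -9.42, -14.3 and -12.5, and all 4 *Mlycd* peaks together covered 964 bases. *Nudt12*, a peroxisomal hydrolase of NADH, had 1 strong peak, chr17:59010123-59010392, with a log10 FDR of -21.9 and a fold enrichment of 4.31. Its other 3 peaks were between -1.86 and -5.45, with fold enrichments from 1.64 to 2.38. *Mogs*, the endoplasmic reticulum glucosidase that makes the first cut in N-glycan trimming, had 4 peaks in chr6:83115556-83118749. Their log10 FDR went from -2.52 for the peak nearest the start of the gene to -18.0 for the one nearest its end.

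Other genes of this group act in ubiquitin and receptor signalling. *Rnf4*, a ubiquitin ligase that recognises SUMO chains, had 4 rows in the list, but these were 2 pairs that share bases, in chr5:34351321-34351534 and chr5:34351744-34351953. Both positions had a low fold enrichment (2.17 to 2.75) and a log10 FDR of -11.0 to -20. *Znrf3*, a membrane ubiquitin ligase that removes Wnt receptors from the cell surface, had 4 peaks in chr11:5279553-5282422 with a log10 FDR from -1.97 to -5.94 and fold enrichments from 8.62 to 18.7. *Npffr1*, a G protein-coupled receptor for RF-amide neuropeptides, had 4 peaks in chr10:61626946-61628505 with fold enrichments from 7.49 to 19.5 and a log10 FDR from -2.33 to -5.16. Both *Znrf3* and *Npffr1* combined a high fold enrichment with weak statistical strength.

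*Bend3*, *Hoxc4* and *Snapc4* act in transcription. *Bend3*, a repressor with BEN domains, had the highest fold enrichment of the group, 36.0 at chr10:43511479-43511867, which is above 98.3% of control peaks. Its log10 FDR there was -9.11, and the other 3 *Bend3* peaks were between -2.37 and -4.01. *Hoxc4*, a homeobox gene of body patterning, had a fold enrichment of 28.5 at chr15:103034157-103034486 and its strongest log10 FDR, -15.0, at chr15:103035807-103036136. *Snapc4* encodes the DNA-binding subunit of the complex that starts transcription of small nuclear RNA genes. Its 4 peaks in chr2:26362885-26369554 had a log10 FDR from -1.7 to -6.83.

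*Aoc2*, a copper amine oxidase, had 4 peaks in chr11:101325392-101329612 with fold enrichments from 8.99 to 27.0 and a log10 FDR from -3.1 to -6.43. *Lrrc61* had 4 peaks on chromosome 6 with a log10 FDR from -1.96 to -7.87. One of them, chr6:48570573-48570722, shared 146 bases with a control peak of *Rarres2* on the opposite strand. The library kit is not stated to keep strand, so this peak cannot be assigned to 1 of the pair.

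The remaining 3 genes with 4 rows had no symbol in the list. ENSMUSG00000053214 had the longest peak of all 1718 genes, chr5:30576680-30578445, at 1766 bases a log10 FDR of -76.2 and a fold enrichment of 10.2. A further peak of this gene, chr5:30573987-30574675, had a log10 FDR of -80.7. Another row, of 555 bases in 3 blocks with a log10 FDR of -52.0, lay inside the longest peak, so the gene had 3 distinct peaks. This row is from the main part of the list. The longest peak and the other rows of this gene are from the last section, after the mitochondrial genes. In the RefSeq gene table of GRCm38 the positions of all its rows lie in the lncRNA gene *Gm9899*. The 4 rows of ENSMUSG00000107994 were 2 pairs in chr6:115676580-115677136, where RefSeq places the lncRNA *D830050J10Rik*, and the stronger pair had a log10 FDR of -28.2 and -28.0. ENSMUSG00000108591 had 4 separate peaks in chr6:72439081-72440580 with a log10 FDR from -2.55 to -7.98. RefSeq places the lncRNA *Particl* there, and the first of these peaks overlaps the span of *Mat2a*.

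Of the 16 genes, 13 kept 4 or more peaks when rows that share bases were counted as 1, a count made after the values were seen. *Rnf4*, ENSMUSG00000053214 and ENSMUSG00000107994 then had fewer. None of the 67 peaks shared a base with a *Wtap*-BKO peak on the same strand.

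**Figure D3:**
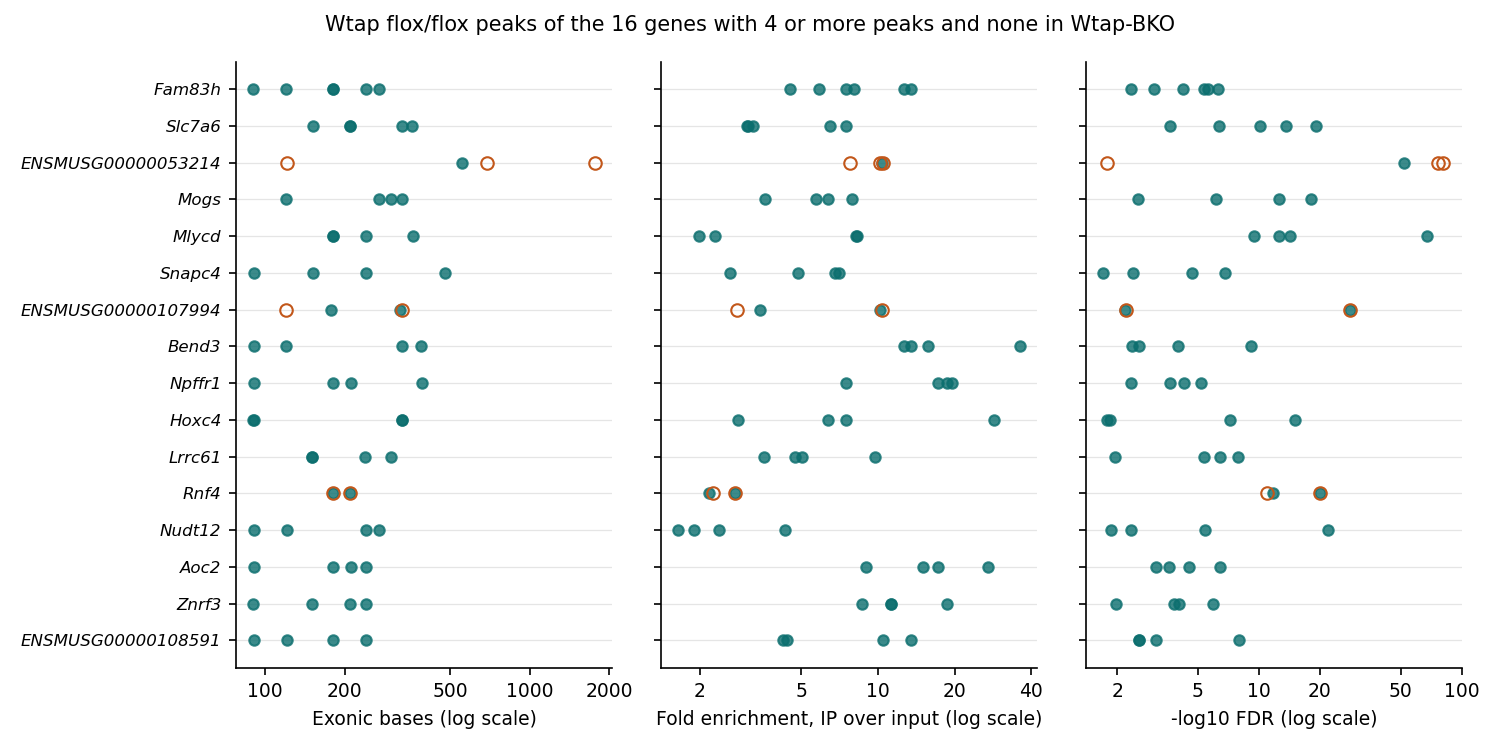
Every control peak of the 16 genes with 4 or more rows (y axis), by exonic bases, fold enrichment of IP over input and -log10 FDR (x axes, all on log scales). Open circles are rows from the last section of the list, some of which repeat positions of earlier rows. The *Mlycd* peak with a log10 FDR of -67.6 and the ENSMUSG00000053214 peaks with -52.0, -76.2 and -80.7 stand to the right of all others.

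Just outside the rule were 50 genes with 4 or more control peaks and exactly 1 *Wtap*-BKO peak. The 5 with the most control peaks were *Prdm16* with 8 and *Lig4*, *Etfbkmt*, *Zkscan1* and *Sipa1l3* with 5 each. *Prdm16*, the transcription cofactor that sets brown fat identity, had control peaks with a log10 FDR from -1.87 to -26.9, and 3 of the 8 shared bases with its single *Wtap*-BKO peak. That peak covered 1230 bases with a log10 FDR of -15.0. The single *Wtap*-BKO peaks of the other 4 genes had a log10 FDR of -5.53 (*Lig4*), -11.7 (*Etfbkmt*), -20.5 (*Zkscan1*) and -8.67 (*Sipa1l3*).

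The 54 genes with 3 peaks included several enzymes and transporters, named here after their values were seen. *Tymp*, thymidine phosphorylase, had the strongest of their peaks at -48.5, but shared bases with the neighbouring *Sco2*. *Acss1*, the mitochondrial acetyl-CoA synthetase, reached -37.3 and *Aldh4a1*, an enzyme of proline breakdown in mitochondria, -24.6. *Gss*, glutathione synthetase, reached -7.83. *Mcu*, the pore of the mitochondrial calcium uniporter, had only weak peaks, with -3.51 as the strongest. The 54 genes therefore ranged from strong to barely listed.

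The strongest peaks were mostly on genes with 1 or 2 peaks. *Isca1*, a factor of mitochondrial iron-sulfur cluster assembly, had the only peak with an FDR given as 0, chr13:59756459-59756999, with a fold enrichment of 7.39. *AK157302*, a pseudogene in RefSeq listed with the same iron-sulfur cluster insertion domains as *Isca1*, also had control peaks only, with a log10 FDR of -133, and how reads were placed between such similar genes is not stated. *Dgat2*, which makes the last step of triglyceride synthesis, had a peak of 240 bases at chr7:99154436-99154675 with a log10 FDR of -255 but a fold enrichment of only 2.03. *Crls1*, cardiolipin synthase of the inner mitochondrial membrane, had a log10 FDR of -220 and a fold enrichment of 3.55 at chr2:132864179-132866101. *Blcap* had a log10 FDR of -207 and a fold enrichment of 6.05 at chr2:157556422-157556899. *Glmp*, a lysosomal membrane glycoprotein, had a log10 FDR of -179 at chr3:88329037-88329905, and 863 bases of this peak were shared with a peak of *Tmem79* on the opposite strand.

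A strong FDR did not go with a high fold enrichment in these genes. Among the further genes with a peak under -100, some enzymes and carriers are named here after their values were seen. *Hibch*, an enzyme of valine breakdown, reached -172 and *Bckdk*, the kinase that inhibits oxidation of branched-chain amino acids, -146. *Gpi1*, the glucose-6-phosphate isomerase of glycolysis, reached -170 with a fold enrichment of 2.01. *Sfxn1*, a serine carrier of mitochondria, had 2 peaks with -132 as the stronger. In all, 43 genes had a peak under -50. Of these, 29 had 1 peak, beside 1362 of all 1718 genes (79.3%). A row that shares bases with a peak of another gene was found on 8 of the 43, beside 247 of the 1718.

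The 5 genes with the longest single peaks were ENSMUSG00000053214 above, ENSMUSG00000114531, *Tmem246*, *Otop1* and *Ppip5k1*. ENSMUSG00000114531 had 1 peak of 1436 bases at chr13:60113738-60115173, in the RefSeq lncRNA *A530065N20Rik*. *Otop1*, a proton channel found in brown fat, had 1 peak of 1258 bases at chr5:38299661-38303110 with a log10 FDR of -72.7. *Tmem246* had a peak of 1259 bases and -59.0, and *Ppip5k1*, an inositol pyrophosphate kinase, one of 1168 bases and -43.0. In contrast to the median of 180 bases, each of these genes had a peak over 1000 bases and still no *Wtap*-BKO peak.

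By function, genes of mitochondrial protein synthesis had a higher share in the control direction than in the opposite one. Of 63 mitochondrial ribosomal protein genes with a control peak, 21 (33.3%, interval 22.9% to 45.6%) had no *Wtap*-BKO peak, beside 17.7% of all control genes. Of 44 such genes with a *Wtap*-BKO peak, 2 (4.55%, interval 1.26% to 15.1%) had no control peak, beside 17.5% of all *Wtap*-BKO genes. The large and the small subunit had similar shares, 14 of 41 *Mrpl* genes (34.1%) and 7 of 22 *Mrps* genes (31.8%). Among the 47 of these genes with 1 control peak, the share was 31.9%, near the 27.6% of all genes with 1 control peak. Among those with 2 or more it was 37.5% (6 of 16), against 7.42% of all genes with 2 or more. Each of the 6 had 2 peaks, and the share over all genes with 2 peaks was 10.4%.

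Their peaks were also among the strong ones. Of 41 mitochondrial ribosomal protein genes with a control peak under -20, 15 (36.6%) had no *Wtap*-BKO peak, against 4.8% of all control genes at that limit. *Mrpl53* had a log10 FDR of -156 at chr6:83109559-83109881, but 301 of its 323 bases were shared with a peak of *Gm42688* on the same strand. *Mrps27* had a log10 FDR of -92.3 over 718 bases at chr13:99414815-99415532. *Mrps24* had -83.1 at chr11:5704402-5704641 and a second peak of -2.08, which shared 48 bases with a peak of *Urgcp* on the same strand. *Mrps23* reached -65.4, *Mrpl43* -61.7 and *Mrpl27* -48.7, while 6 of the 21, such as *Mrpl3* at -5.16 and *Mrpl1* at -2.59, were weaker than -6. The highest fold enrichment of each gene ranged from 1.53 for *Mrpl36* to 14.2 for *Mrps9*.

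Other factors of mitochondrial gene expression (tRNA synthetases, translation and transcription factors) gave 13 of 54 control genes (24.1%) without a *Wtap*-BKO peak and 1 of 42 *Wtap*-BKO genes (2.38%) without a control peak. All genes gave 17.7% and 17.5%, and the interval of the 24.1% (14.6% to 36.9%) includes 17.7%. *Tfb1m*, a methyltransferase of mitochondrial ribosomal RNA, had a log10 FDR of -29.7 and a fold enrichment of 20.5. The asparagine and threonine tRNA synthetases *Nars2* and *Tars2* reached -29.0 and -22.5. *Fastkd2* and *Gfm2*, which act in ribosome assembly and recycling, reached -20.6 and -19.2. *Mterf2* had 3 peaks over 1190 bases with -6.49 as the strongest.

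The nuclear genes of oxidative phosphorylation gave the same share in both directions, 18 of 72 (25%) each, beside 17.7% and 17.5% of all genes. Among those with a peak under -20 it was 6 of 40 control genes (15%) and 1 of 35 *Wtap*-BKO genes (2.86%), beside 4.8% and 1.22% of all genes. With an FDR under 1e-05 asked for in both lists, 13 of 61 (21.3%) had control peaks only, against 24.2% of all control genes. *Uqcrfs1*, the Rieske protein of complex III, had a log10 FDR of -98.7 at a fold enrichment of only 1.7. *Ndufaf7*, a methyltransferase that assembles complex I, had -59.5 at a fold enrichment of 14.8. *Sco2*, a copper chaperone of cytochrome c oxidase, had -49.4, with bases shared with *Tymp* on the same strand and *Ncaph2* on the opposite one. The median strongest log10 FDR of the 18 genes was -6.45, against -27.8 for the 21 mitochondrial ribosomal genes. Mitochondrial carriers gave 7 of 33 (21.2%), among them the phosphate carrier *Slc25a3* at -12.7. Cytosolic ribosomal proteins gave 4 of 25 (16%), against 9 of 30 (30%) in the opposite direction, and *Rpl36al* was the strongest at -38.7.

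Of the brown fat identity and thermogenic genes, 7 of 48 (14.6%) had control peaks only, beside 17.7% of all control genes. In the opposite direction it was 2 of 43 (4.65%, interval 1.28% to 15.5%), beside 17.5% of all *Wtap*-BKO genes. They were *Otop1*, *Slc27a2*, *Acot2*, *Zfp423*, *Gk*, *Elovl3* and *Tbx15*. *Slc27a2*, an acyl-CoA synthetase of very long-chain fatty acids, had 3 peaks with a log10 FDR of -2.37, -4.28 and -34.8. *Acot2*, a mitochondrial thioesterase of fatty acyl-CoA, had 2 with -10.6 and -2.91. *Elovl3*, the fatty acid elongase induced by cold, had 2 weak peaks of -4.01 and -1.78 and was the single brown adipocyte marker of 14 without a *Wtap*-BKO peak.

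No examined marker of other cell types was among the 1718 genes, but few of these markers had a control peak. The counts were 0 of 5 macrophage, 0 of 6 fibroblast, 0 of 5 endothelial, 0 of 2 smooth muscle, 0 of 3 skeletal muscle and 0 of 4 Schwann cell markers with a control peak. The interval of each of these counts includes the 17.7% of all control genes, with upper bounds from 39.0% (fibroblast) to 65.8% (smooth muscle). Lymphocyte and epithelial markers had no control peak at all. In the opposite direction, 3 of 3 lymphocyte, 2 of 7 macrophage, 2 of 5 skeletal muscle, 1 of 6 endothelial, 1 of 3 smooth muscle, 0 of 6 fibroblast and 0 of 4 Schwann cell markers had *Wtap*-BKO peaks only, beside 17.5% of all *Wtap*-BKO genes. The part of cell composition in the genes with control peaks only was not tested. Of the m6A machinery, *Zcchc4*, which methylates 28S ribosomal RNA, and the reader *Igf2bp2* had control peaks only (2 of 17, 11.8%). The interval of this share, 3.29% to 34.3%, includes the 17.7% of all control genes. Both genes had a log10 FDR no stronger than -2.77.

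Transporters and channels of membranes were counted by symbol and by domain. For comparison, 17.7% of all control genes and 17.5% of all *Wtap*-BKO genes had no peak in the other list. Of 153 solute carriers, 38 (24.8%, interval 18.7% to 32.2%) had control peaks only, against 19 of 134 (14.2%) in the opposite direction. *Slc2a5*, a fructose transporter, had 1 peak of 986 bases at chr4:150143035-150144020 with a log10 FDR of -94.9 and a fold enrichment of 14.2. *Slc19a1*, the reduced folate carrier, reached -43.4 over 450 bases. Of 120 *Tmem* genes, a symbol that says only that the protein spans a membrane, 37 (30.8%) had control peaks only, against 14 of 97 (14.4%) in the opposite direction. *Tmem106b*, a lysosomal membrane protein, was the strongest with -110 at chr6:13083396-13084490. The major facilitator superfamily gave 15 of 49 (30.6%), and ion channel genes 10 of 30 (33.3%), for which the opposite direction was higher still, 14 of 34 (41.2%). The ion channel list was fixed by symbol. Its strongest gene, *Trpc4ap* at -33.5, is named for a protein associated with a channel, and it was the only 1 under -20. Genes with an ion transport domain gave 8 of 24 (33.3%), all of them with 1 peak, and 10 of 26 (38.5%) in the opposite direction. With an FDR under 1e-05 in both lists, the ion transport domain gave 2 of 11 (18.2%), below the 24.2% of all control genes.

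Adaptors of cullin ubiquitin ligases, the F-box and Kelch-like genes, gave 19 of 63 (30.2%, interval 20.2% to 42.4%) against 3 of 47 (6.38%) in the opposite direction. All control genes gave 17.7% and all *Wtap*-BKO genes 17.5%. Among F-box and Kelch-like genes with 1 control peak it was 14 of 24 (58.3%), beside 27.6% of all genes with 1 control peak. *Fbxo8* had a log10 FDR of -68.2 at chr8:56591516-56591845 and a second peak of -4.34. *Klhl21* had a peak of 690 bases with -28.7, and *Fbxo31* had 3 peaks with -26.4 as the strongest. RING and TRIM ligases named by symbol gave 9 of 85 (10.6%). The proteasome gave 3 of 29 (10.3%). The intervals of the RING and TRIM ligases (5.67% to 18.9%) and of the proteasome (3.58% to 26.4%) include 17.7%. With an FDR under 1e-05 in both lists, F-box and Kelch-like genes gave 17 of 51 (33.3%), against 24.2% of all control genes. At that limit RING and TRIM ligases gave 17 of 74 (23.0%) and the proteasome 6 of 25 (24.0%).

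DNA replication and repair genes gave 16 of 49 (32.7%), against 5 of 38 (13.2%) in the opposite direction, beside 17.7% and 17.5% of all genes. *Ung*, which removes uracil from DNA, reached -16.1 and *Polh*, a polymerase that copies past damage, -10.2. Genes with an S-adenosylmethionine-dependent methyltransferase fold gave 25 of 73 (34.2%, interval 24.4% to 45.7%) against 7 of 55 (12.7%). These include *Ndufaf7* and *Tfb1m* above, the arginine methyltransferase *Prmt2* at -14.3, and *Nnmt*, which methylates nicotinamide, at -6.36. Genes with a SET domain gave 7 of 37 (18.9%) and histone genes 3 of 13 (23.1%), of which *Hist1h2be* and *Hist1h1e* shared the same bases. The intervals of SET domain genes (9.48% to 34.2%) and histone genes (8.18% to 50.3%) include 17.7%.

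Zinc finger and other DNA-binding genes were counted in the same way. Genes with a C2H2 zinc finger domain gave 51 of 498 (10.2%, interval 7.88% to 13.2%), the *Zfp* genes by symbol 33 of 287 (11.5%), genes listed with a homeobox or homeobox-like domain 8 of 98 (8.16%), *Hox* genes 2 of 20 and basic helix-loop-helix genes 4 of 49 (8.16%). The intervals of *Hox* genes (2.79% to 30.1%) and basic helix-loop-helix genes (3.22% to 19.2%) include 17.7%. Of the 8, *Rcor1*, *Tada2a*, *Snapc4* and *Tigd5* carry only the homeobox-like superfamily entry and are not homeobox genes. The wide RING/FYVE/PHD-type zinc finger entry gave 52 of 550 (9.45%), and it also takes in C2H2 genes such as *Zfp672* and others that are not ubiquitin ligases. With an FDR under 1e-05 in both lists, the shares were 23.6% for C2H2 genes (87 of 369), 24.8% for *Zfp* genes (50 of 202), 21.5% for the homeobox or homeobox-like domain (17 of 79) and 22.9% for the RING/FYVE/PHD-type entry (102 of 445), against 24.2% of all control genes. At that limit basic helix-loop-helix genes gave 2 of 38 (5.26%) and *Hox* genes 1 of 15 (6.67%). C2H2 genes carried more peaks than mitochondrial ribosomal genes, with a mean of 2.63 against 1.29 control peaks. Among C2H2 genes with 1 peak, 24.3% (34 of 140) had control peaks only, near the 27.6% of all genes with 1 peak. None of the 51 C2H2 genes had a peak under -20, and *Zfp672* was the strongest at -19.3.

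Genes with a protein kinase domain gave 31 of 278 (11.2%, interval 7.97% to 15.4%), beside 17.7% of all control genes. With an FDR under 1e-05 in both lists they gave 46 of 226 (20.4%), against 24.2% of all control genes. *Sbk1* had 3 peaks with -36.1 as the strongest, *Ulk1*, the kinase that starts autophagy, had 2 with -33.1 and -22.6, and *Map2k2*, a kinase of the ERK pathway, had 1 with -21.3. Rhodopsin-like receptors gave 8 of 74 (10.8%, interval 5.58% to 19.9%) against 19 of 85 (22.4%) in the opposite direction. One of the 8 was *Tshr*, the thyrotropin receptor, with a peak of 629 bases and -15.2. The *Gpr* and *Adgr* genes gave 3 of 26 (11.5%) against 6 of 29 (20.7%). Olfactory receptors gave 0 of 2 and genes with an immunoglobulin-like domain 17 of 139 (12.2%), against 69 of 191 (36.1%) in the opposite direction. All *Wtap*-BKO genes gave 17.5% in that direction. *Rab* GTPases of vesicle traffic gave 12 of 44 (27.3%, interval 16.3% to 41.8%), with *Rab3d* at -20.3 and *Rab8a* at -16.8. With an FDR under 1e-05 in both lists, *Rab* genes gave 10 of 35 (28.6%), against 24.2% of all control genes. At that limit rhodopsin-like receptors gave 5 of 52 (9.62%), *Gpr* and *Adgr* genes 3 of 19 (15.8%) and immunoglobulin-like domain genes 8 of 95 (8.42%).

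Further lists were fixed by domain or symbol, and their shares stand beside 17.7% of all control genes and 17.5% of all *Wtap*-BKO genes. Tetratricopeptide repeat genes gave 22 of 139 (15.8%), WD40 repeat genes 36 of 241 (14.9%), coiled-coil (*Ccdc*) genes 7 of 54 (13.0%), the cilium list 8 of 46 (17.4%), and peroxisome biogenesis genes 3 of 11. The cilium list gave 15 of 31 (48.4%) with an FDR under 1e-05 in both lists, against 24.2% of all control genes. It was fixed by symbol and takes in genes named for tetratricopeptide repeats, such as *Ttc3* and *Ttc7*. A cilium role of each gene was not checked. *Gm* and *Rik* genes gave 61 of 266 (22.9%, interval 18.3% to 28.3%). Genes without a symbol gave 354 of 948 (37.3%, interval 34.3% to 40.5%), and 361 of 955 (37.8%) in the opposite direction. Of the 354, 291 had 1 peak, and their median strongest log10 FDR was -3.4.

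**Figure D4:**
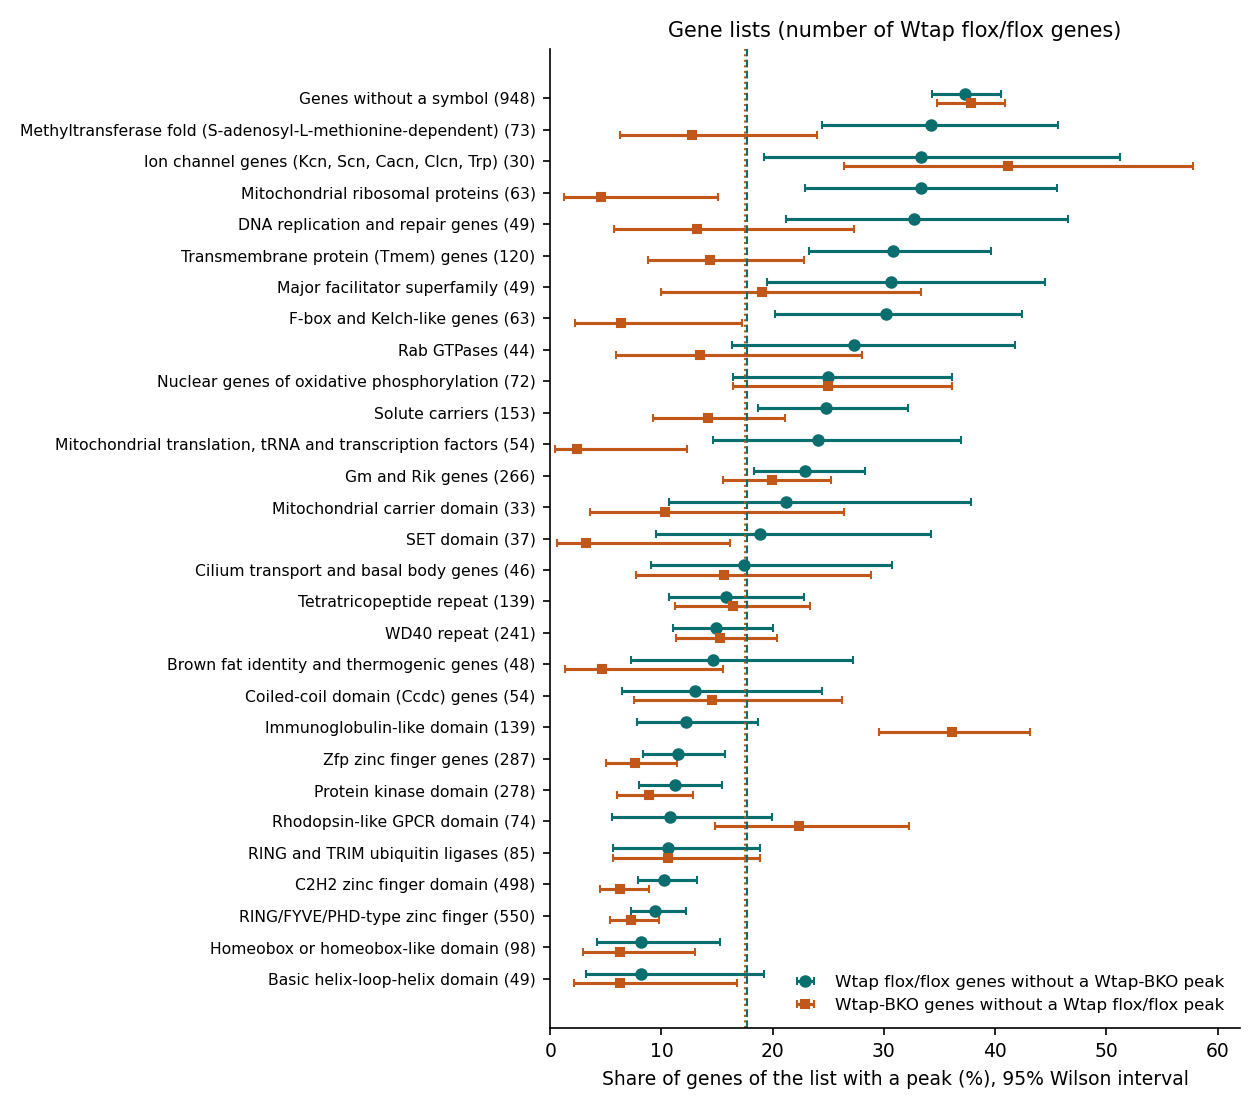
Share of genes (%, x axis) that lack a peak in the other genotype, for the function lists with at least 30 control genes (y axis, number of control genes in brackets). Circles are *Wtap* flox/flox genes, squares *Wtap*-BKO genes, bars 95% Wilson intervals and vertical lines the shares over all genes (17.7% and 17.5%). Mitochondrial ribosomal proteins stand at 33.3% and 4.55%.

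On the gene, peaks of the selected genes lay closer to the 3ʹ end. The position was measured for 1591 of the 1729 peaks on selected genes with a symbol (92.0%), as the distance of the peak centre from the ends of the RefSeq gene for genes of at least 3000 bases. For all 1718 genes the check is void, since 78.2% were in the table. Within 1000 bases of the 3ʹ end lay 33.4% of these peaks (531 of 1591, interval 31.1% to 35.7%), against 20.4% (2934 of 14412) for genes with a *Wtap*-BKO peak. Among genes with 1 peak the shares were 37.6% and 32.0%, with intervals of 34.6% to 40.7% and 30.3% to 33.8%, so much of the difference went with the number of peaks. Among genes with 1 peak and a log10 FDR under -5 they were 43.3% and 35.2%. Near the 5ʹ end the order was turned, with 5.2% against 10.1% for these peaks. Selected genes with a symbol were shorter, with a median span of 21335 bases (interval 19664 to 22713) against 24750 (23873 to 25568) for the others. For those with 1 peak the intervals overlapped, with medians of 20855 and 21730.

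**Figure D5:**
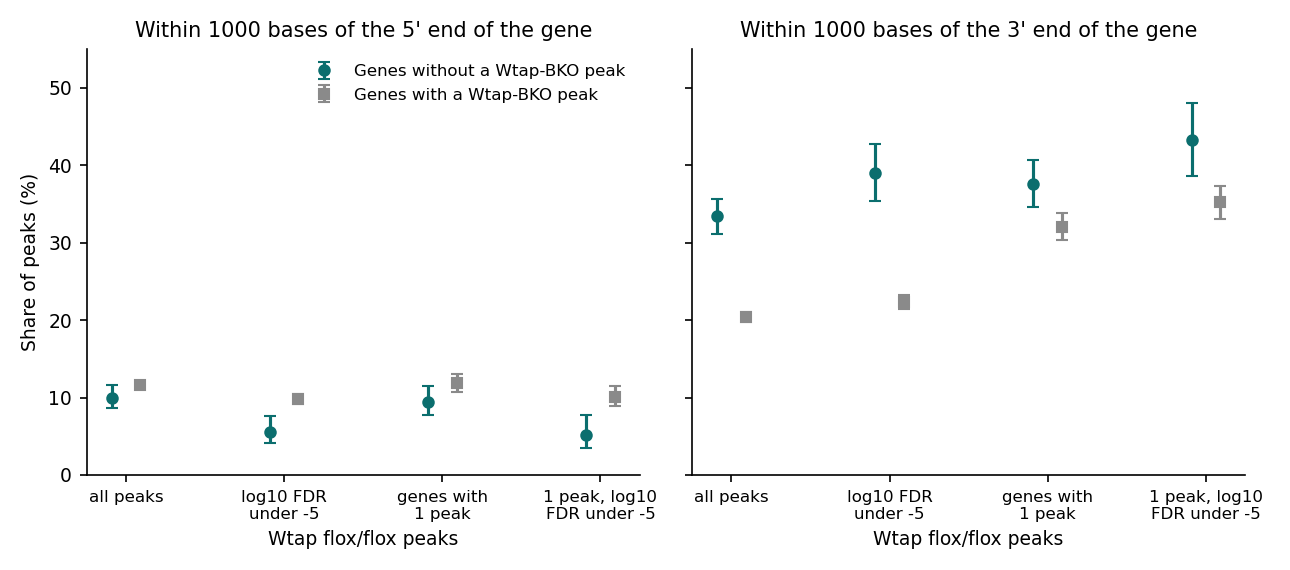
Share of control peaks (%, y axis) with their centre within 1000 bases of the 5ʹ end (left) and the 3ʹ end (right) of the gene, for genes without (circles) and with (squares) a *Wtap*-BKO peak and for the subsets on the x axis. Bars are 95% Wilson intervals. At the 3ʹ end the circles stand above the squares in all 4 subsets, by the least for genes with 1 peak (37.6% and 32.0%).

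The rule follows gene identifiers, and few peaks of the selected genes lay at the position of a *Wtap*-BKO peak. The reverse was not counted, that is, control peaks away from any *Wtap*-BKO peak on genes that have a peak in both lists. Only 7 of the 2163 peaks shared a base on the same strand with a *Wtap*-BKO peak of another identifier, and 31 with one on the opposite strand. Among the 7, *Fgfr2* shared 91 bases with *Ctbp2* at chr7:133123260-133123350, *Gm29394* shared 121 with *Zhx1*, and *Chkb* shared 61 with a neighbouring gene. A control peak of another gene shared bases with a peak of 247 of the 1718 genes on either strand, so the assignment of those peaks is uncertain. The symbols of 3 genes occurred in the *Wtap*-BKO list under another identifier.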

How the data were processed

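The analysis started from the peak lists that the authors deposited, 1 per genotype, each called on 1 pooled IP against 1 pooled input. The methods name MACS2 as the caller, while the layout of the lists is that of the R package exomePeak. The submitters' processing notes name fastp 0.19.11, BWA 0.7.12, HOMER 4.9.1 and GRCm38.p6. The authors filtered the lists at an FDR under 0.05, and the largest FDR left in the control list was 0.0447. The deposited p-value of each peak was not used further. The deposited score used for strength is the log10 of the FDR, and the deposited fold enrichment is a ratio (IP over input of the same genotype) whose scaling for library size is not stated. Read totals are not given, so the depth is unknown.

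Peaks were read in Python 3.11.15 with scipy 1.17.1, numpy 2.4.6 and pandas 2.3.3. Figures were made with matplotlib 3.10.9. Length is the sum of a peak's exon blocks. Genes were matched by Ensembl identifier, and peaks shared a position when at least 1 base of their blocks overlapped. The last section of each list, after the mitochondrial genes, holds further rows of some genes, with 373 control rows. Some of these rows repeat positions of earlier rows and others do not. Shares have 95% Wilson intervals, and medians have intervals from binomial order statistics. Gene ends were those of RefSeq genes on GRCm38.p6. The matching code was run on a copy of the control list with known genes removed. This checks the code only, and not how well genes match between the real lists.

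The selected genes and the 47 gene lists (38 by function, 9 of cell type markers) were chosen with earlier results of these data known. The genes named are all with 4 or more peaks, the 5 with the longest peak, the 5 with the strongest peak and, from each list, up to 3 by FDR, of which some are given. Just outside the rule, 5 genes with 1 *Wtap*-BKO peak are given. With no replicates no test was made, and sequences of the peaks were not analysed here.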

Additional observations from a re-analysis of the deposited data

How the results depend on the processing

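The results depended most on the FDR limit. When control peaks had to have an FDR under 1e-05 and the full *Wtap*-BKO list was kept, 758 genes had control peaks only. Of these, 682 had 1 peak and 3 had 4 or more, and the medians were 268 bases and a fold enrichment of 5.12. With this limit in both lists the number was 1756 genes, of which 758 were among the 1718, and the medians were 270 bases and 6.08. The median fold enrichment was 6 for genes with a symbol matched by symbol. Counting peaks under 100 bases apart as 1 left 10 genes with 4 or more peaks. The other alternatives, 33 of 42 values, stayed within 1.5 times the count or within the interval of the median. They include leaving out peaks shared with another gene (1508 genes) and, chosen after the data were seen, leaving out the last section of both lists (1706 genes). Mitochondrial ribosomal protein genes without a *Wtap*-BKO peak numbered 16 to 25 under all alternatives, against 21 as reported. The share over all genes moved with the limit. With the limit on control peaks only, it was 16 of 55 (29.1%), beside 10.4% of all control genes. With the limit in both lists, it was 25 of 55 (45.5%), beside 24.2% of all control genes.

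No paired analysis was possible because each genotype had 1 pooled IP and 1 pooled input, so there was no replicate to leave out. Depth is unknown. Transcript levels were not examined here, though the paper reports RNA-seq of iBAT from both genotypes at the same age.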

Other observations

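The share of control genes without a *Wtap*-BKO peak varied between chromosomes, from 11.6% on chromosome 14 (38 of 329 genes, interval 8.53% to 15.5%) to 24.6% on chromosome 16 (70 of 284 genes, interval 20% to 30%), leaving out chromosome Y with 3 genes. Of the genes encoded by mitochondrial DNA, 5 had a control peak and 0 of these lacked a *Wtap*-BKO peak. The interval, 0% to 43.4%, includes the 17.7% of all control genes.

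The peaks of genes with 2 peaks were often far apart. For the 286 such genes the median distance between both peaks was 1182 bases of genome, 34 pairs shared bases or lay under 100 bases apart, and 70 pairs were more than 10000 bases apart.

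In the opposite direction, the 2083 peaks of genes with *Wtap*-BKO peaks only had a median of 151 bases, a median fold enrichment of 5.69 and a median log10 FDR of -3.34. Among the 1718 genes with control peaks only, 827 had under 200 bases of peak in all and 19 had 1000 bases or more.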
